A study of Homo sapiens with 64 samples.

Results

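The NNT shRNA libraries were compared with the scrambled shRNA libraries of the same cell line, to ask how little of the transcriptome besides NNT differs when NNT mRNA is strongly lowered. The libraries were assigned to groups by their sample labels, not by measured values, and make up 7 of the 16 libraries of the series. All libraries come from NCI-H295R, an established steroid-producing cell line from a human adrenocortical carcinoma. Cells carrying an shRNA against NNT gave 4 libraries, with the title codes 18-3, 19-2, 2-3 and 24-2. Cells carrying a scrambled shRNA gave 3 libraries, with the codes 18-3, 19-2 and 24-2. Cells harvested 72 h after transfection with NNT siRNA-3 (3 libraries) and with scrambled siRNA (3 libraries) were used for a comparison of reagents. Together with 3 libraries of NNT siRNA-2 they are the 9 siRNA libraries used for levels across reagents and in an alternative fit of all 16 libraries. The shRNA sequence, its vector, how cells carrying it were selected and how long they carried it were not stated in the labels, nor was what the title codes stand for. Triplicates are mentioned there, although the NNT shRNA label is on 4 libraries. Separate cultures are not mentioned, so each p-value is set against a library-to-library spread that may be technical.

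NNT encodes nicotinamide nucleotide transhydrogenase, a proton-driven enzyme of the inner mitochondrial membrane that passes hydride from NADH to NADP and so makes NADPH in the matrix. Matrix NADPH serves glutathione reductase and thioredoxin reductase, which keep peroxide-removing enzymes reduced, and in the adrenal cortex it also feeds electrons through ferredoxin reductase and ferredoxin to the mitochondrial steroid hydroxylases. Inherited loss of NNT in humans causes glucocorticoid deficiency.

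The 7 libraries held 26122083 to 43992833 gene counts and 17907 to 18571 genes with a count. Markers of the adrenal cortex were present in each of the 7 libraries, among them STAR, the cholesterol carrier, at 346 to 428 CPM (read counts scaled to a common library size by TMM) in NNT shRNA libraries and 314 to 448 CPM in scrambled libraries. Markers of blood cells summed to 1.44 to 1.82 CPM in NNT shRNA libraries and 1.73 to 1.88 CPM in scrambled libraries, with PTPRC and CD3E at 0. Markers of endothelial cells summed to 0.708 to 1.15 CPM in NNT shRNA libraries and 1.05 to 1.25 CPM in scrambled libraries, and those of fibroblasts to 16.3 to 21.5 CPM in NNT shRNA libraries and 19.3 to 23.0 CPM in scrambled libraries, with POSTN at 0. What part other cells have in any difference was not tested. Of 9 chromaffin or neural markers, 4 were high enough to test. The sum over the 9 markers was 61.3 to 72.4 CPM in NNT shRNA libraries and 57.3 to 59.7 CPM in scrambled libraries. It did not overlap between groups, which was also so for 3.16% of single genes tested. The chromaffin genes PNMT and PHOX2A were at 0. A list of 14 genes chosen as lacking a poly(A) tail added up to 316 to 385 CPM in NNT shRNA libraries and 333 to 365 CPM in scrambled libraries. Its members that reached 1 CPM were histone genes. Whether their reads came from RNA without a tail was not tested, so the sum does not measure RNA quality. Library 2-3 of the NNT shRNA group stood apart in genes of mitosis. Their mean log2 CPM was 7.98 there, 7.38 to 7.45 in the other NNT shRNA libraries and 7.45 to 7.60 in scrambled libraries.

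NNT stood at 28.9, 30.0, 34.8 and 34.2 CPM in the NNT shRNA libraries 18-3, 19-2, 2-3 and 24-2, against 384, 319 and 418 CPM in the scrambled libraries 18-3, 19-2 and 24-2. Each NNT shRNA library lay far below each scrambled library, and their residual level came to 7.74 to 9.32% of the scrambled mean. The log2 fold change was -3.54 with a 95% interval from -3.76 to -3.33, an 11.7-fold lower level (adjusted p = 1.48e-09; unless another tool is named, p-values are from edgeR's quasi-likelihood fit). The raw counts behind these levels were 857, 837, 1278 and 1365 reads in NNT shRNA libraries and 17150, 9946 and 10915 reads in scrambled libraries, so counting error was small.

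NNT lies on the plus strand of chromosome 5 from 43602675 to 43707396 in RefSeq's annotation of GRCh38.p14, and its antisense long non-coding RNA NNT-AS1 runs the other way from 43603230 down to 43573185, so that the spans share 556 bases at the start of NNT. The window around 1 of the RefSeq starts of NNT is shown because it overlaps the start window of the antisense gene, whose annotated start lies just beyond the window's last base. It is chr5:43602930-43603229 on the plus strand, 250 bases before to 50 bases after that start, and the 49 bases it shares with the start window of NNT-AS1 are in capitals.
NNT start window: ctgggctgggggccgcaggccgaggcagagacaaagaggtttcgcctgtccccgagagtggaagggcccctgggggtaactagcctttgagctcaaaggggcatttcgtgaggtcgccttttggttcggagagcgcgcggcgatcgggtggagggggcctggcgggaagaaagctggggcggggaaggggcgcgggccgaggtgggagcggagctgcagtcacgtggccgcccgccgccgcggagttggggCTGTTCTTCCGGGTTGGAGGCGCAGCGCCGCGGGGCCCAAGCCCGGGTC

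NNT-AS1, whose start window holds the capitals above, stood at 31.2, 30.2, 37.7 and 36.6 CPM in NNT shRNA libraries 18-3, 19-2, 2-3 and 24-2, against 31.7, 26.1 and 37.4 CPM in scrambled libraries 18-3, 19-2 and 24-2. The groups overlapped, and the log2 fold change was 0.10 with an interval from -0.17 to 0.37. The library kit marks strand, but the labels do not state whether counting used it, so reads in the shared stretch cannot be told apart by gene. Of 9 genes of the NNT neighbourhood that were tested, each had its interval inside 2-fold. PAIP1, a translation factor partner, was at 0.99-fold with an interval from -0.17 to 0.14 on the log2 scale, MRPS30, a mitochondrial ribosomal protein, at -0.05 (-0.24 to 0.14), and HMGCS1, an early enzyme of cholesterol synthesis, at -0.04 (-0.36 to 0.28).

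**Figure D1:**
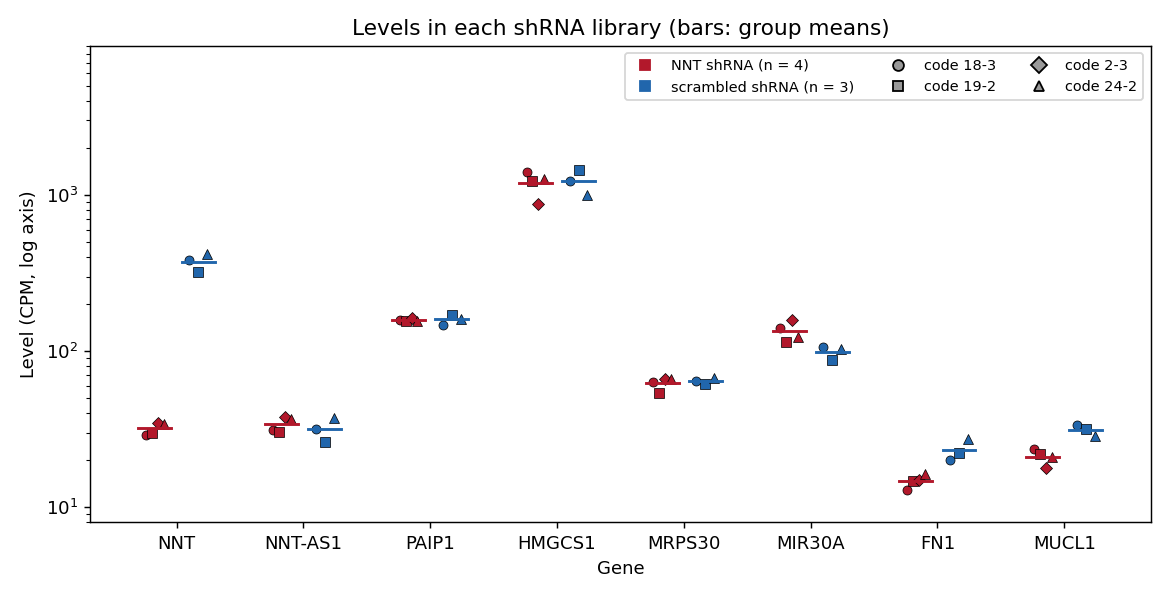
Levels in CPM (log axis) of NNT, 4 genes of its neighbourhood, MIR30A, FN1 and MUCL1 in each library, with NNT shRNA (red) left of scrambled shRNA (blue), bars at the group means and 1 symbol for each title code. NNT lies at 28.9 to 34.8 CPM in NNT shRNA libraries and 319 to 418 CPM in scrambled libraries, while its neighbours overlap between groups.

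A row that marks the shRNA libraries as such is MIR30A, the gene of the microRNA miR-30a on the minus strand of chromosome 6 from 71403551 to 71403621 (GRCh38.p14, RefSeq). Its precursor and mature arms are shown because this 71-base gene was read in both shRNA groups and hardly at all in siRNA libraries. Capitals mark both mature arms in the hairpin and the seed, bases 2 to 8, in each arm.
MIR30A hairpin: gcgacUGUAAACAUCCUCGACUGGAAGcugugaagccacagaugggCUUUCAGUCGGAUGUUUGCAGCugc
hsa-miR-30a-5p: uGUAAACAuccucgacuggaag
hsa-miR-30a-3p: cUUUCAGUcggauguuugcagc

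MIR30A had 4139, 3197, 5767 and 4927 reads in NNT shRNA libraries 18-3, 19-2, 2-3 and 24-2 and 4759, 2714 and 2708 reads in scrambled shRNA libraries 18-3, 19-2 and 24-2. In the 9 siRNA libraries it had at most 2 reads each and 6 in all. Of 11910 rows at 2 CPM or more in each shRNA library, MIR30A was the 1 row in which each shRNA library lay at least 2-fold above each siRNA library, and 0 rows showed the reverse. Some shRNA vectors carry their hairpin within flanks of this human precursor. The vector is not given in the sources used here, and whether these reads come from it was not tested. Poly(A)-selected libraries do not measure mature miRNAs. Between the shRNA groups the row was at 140, 115, 157 and 124 CPM in NNT shRNA libraries 18-3, 19-2, 2-3 and 24-2, against 107, 87.0 and 104 CPM in scrambled libraries 18-3, 19-2 and 24-2. Those groups did not overlap, but the log2 fold change of 0.43 (0.20 to 0.67) did not pass over all genes (adjusted p = 1).

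Besides NNT, few transcripts were separable between the groups. Of 14843 genes tested, 2 passed an adjusted p of 0.05 (0.0135%), NNT and PEX5L, and both were lower in NNT shRNA than in scrambled shRNA libraries. With an unadjusted p under 0.05 there were 319 genes (2.15%), 100 higher and 219 lower, and in 469 genes (3.16%) the 2 groups did not overlap. With 4 and 3 libraries some genes separate by chance, so groups that do not overlap are given as a description. If no gene differed, 5% would be expected to have such a p, so 2.15% is no excess. A share below 5% does not show that little differed, because this fit counts any spread shared by title code as error. The median gene differed by 0.06 on the log2 scale in either direction, 1.05-fold, the 95th percentile was 0.37, 1.29-fold, and the 99th percentile was 0.65, 1.57-fold. With the title code as a block 4 genes passed, NNT, PEX5L, FN1 and LRRC19. An unadjusted p under 0.05 was then seen for 585 of the 14843 genes, also under 5%. LRRC19, the 1 higher gene of the 4, had 35, 20, 6 and 15 reads in NNT shRNA libraries 18-3, 19-2, 2-3 and 24-2. In scrambled libraries 18-3, 19-2 and 24-2 it had 7, 3 and 2 reads. It passed in 1 of the 12 alternatives that tested it.

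A p that misses the threshold does not show that a gene did not differ, so the 95% interval of each log2 fold change was read as the bound. The interval lay wholly inside 2-fold for 13921 genes, 93.8% of those tested, and wholly inside 1.5-fold for 79.3%. These shares depend on which genes are tested, and with no filter on low counts they were 67.7% and 58.0% of 20652 genes. Leaving out 1 library gave 88.8 to 93.8% within 2-fold, lowest without the scrambled library 18-3. The bound depended on level. Under 1 CPM 49.0% of 1556 genes were bounded within 2-fold, at 1 to 4 CPM 94.0%, at 4 to 16 CPM 99.6%, and from 256 CPM up each of the 764 genes was. Among 10204 genes with an average of at least 8 CPM, 99.95% were bounded within 2-fold and 98.3% within 1.5-fold. Intervals are per gene and not simultaneous.

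**Figure D2:**
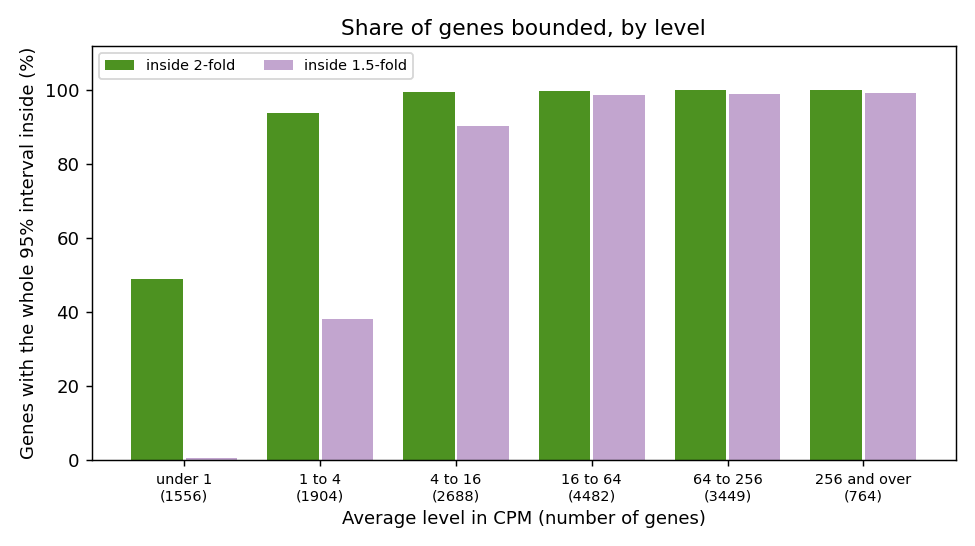
Percent of tested genes whose whole 95% interval lies inside 2-fold (green) or 1.5-fold (purple), by average level in CPM, with the number of genes under each pair of bars. The green bar rises from 49.0% under 1 CPM to 100% at 256 CPM and over.

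The genes at 8 CPM or more not bounded within 2-fold were 5, NNT among them. EGR1, an immediate early transcription factor, stood at 48.3, 12.3, 95.2 and 40.8 CPM in NNT shRNA libraries 18-3, 19-2, 2-3 and 24-2, against 27.4, 11.9 and 34.8 CPM in scrambled libraries 18-3, 19-2 and 24-2. It spread widely within the NNT shRNA group, and its log2 fold change of 1.00 had an interval from -0.05 to 2.05. HSD3B2, TNC and the unannotated row UG0898H09 were the others, with intervals from -0.28 to 1.03, from -1.005 to -0.04 and from -1.09 to -0.28. Point estimates beyond 2-fold were seen for 27 genes, 23 of them under 1 CPM.

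**Figure D3:**
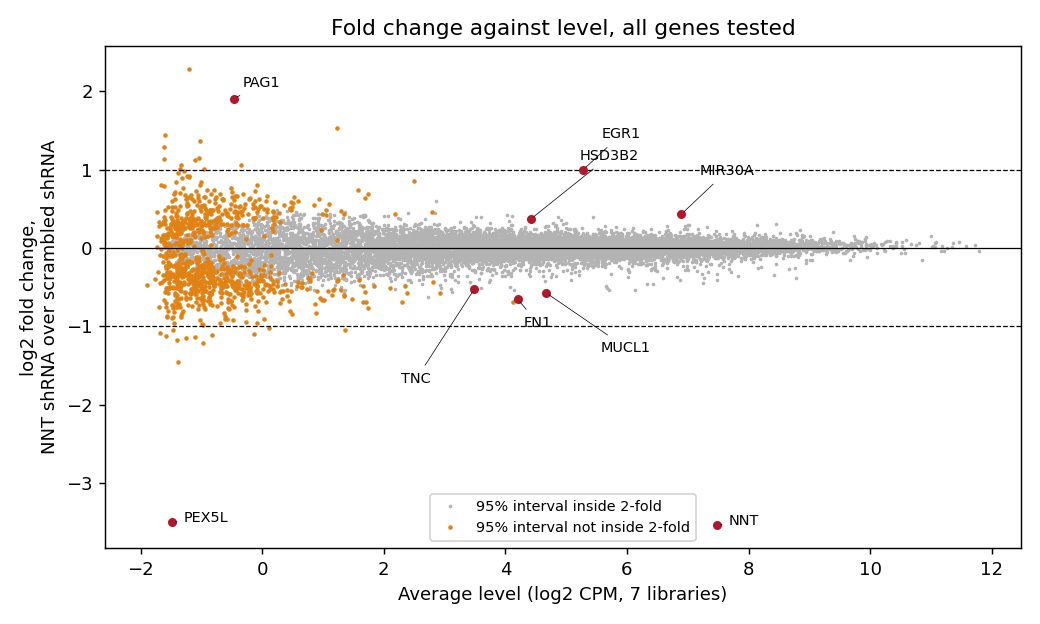
Log2 fold change (NNT shRNA over scrambled shRNA) against average log2 CPM for 14843 genes, grey where the 95% interval lies inside 2-fold and orange where it does not, with named genes in red and dashed lines at 2-fold. NNT at -3.54 stands alone among genes of its level, and PEX5L and PAG1 lie at the low end of the range.

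Intervals wholly beyond 2-fold were found for 3 genes, NNT, PEX5L and PAG1. PEX5L, a relative of the peroxisomal import receptor that also binds HCN channels, had 1, 2, 2 and 2 reads in NNT shRNA libraries 18-3, 19-2, 2-3 and 24-2, against 22, 19 and 22 reads in scrambled libraries 18-3, 19-2 and 24-2. Each NNT shRNA library was at the edge of detection. The ratio of summed counts per library size was 0.0845, with an exact 95% interval from 0.0326 to 0.184 that covers counting error only, and the fitted log2 fold change was -3.50 (-4.70 to -2.31, adjusted p = 0.0199). It missed the threshold when any 1 of the 7 libraries was left out (adjusted p 0.0572 to 0.165). On a scale shared by all 16 libraries PEX5L averaged 0.0519 CPM in NNT shRNA, 0.639 CPM in scrambled shRNA, 0.0302 CPM in NNT siRNA-3 and 0.0789 CPM in scrambled siRNA libraries, so that scrambled shRNA was the high group.

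PAG1, a membrane adaptor that recruits the kinase CSK and was chosen here after its values were seen, had 29, 29, 37 and 35 reads in NNT shRNA libraries 18-3, 19-2, 2-3 and 24-2, against 9, 11 and 6 reads in scrambled libraries 18-3, 19-2 and 24-2. The groups did not overlap, and the log2 fold change was 1.91 (1.23 to 2.59), which missed the threshold (adjusted p = 0.127). DESeq2 called it (adjusted p = 0.0154), as did the fit with all 16 libraries (adjusted p = 0.0435) and the fit with no filter on low counts (adjusted p = 0.0394). Here the NNT shRNA group was the high one, at 0.964 CPM, against 0.258 CPM in scrambled shRNA, 0.289 CPM in NNT siRNA-3 and 0.435 CPM in scrambled siRNA libraries.

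Among genes at 8 CPM or more, 63 had an unadjusted p under 0.05 and groups that did not overlap, 26 higher and 37 lower, and of these NNT alone passed in the reported fit. FN1, fibronectin of the extracellular matrix, stood at 12.9, 14.7, 14.9 and 16.2 CPM in NNT shRNA libraries 18-3, 19-2, 2-3 and 24-2, against 20.01, 22.3 and 27.3 CPM in scrambled libraries 18-3, 19-2 and 24-2. Its log2 fold change was -0.65 (-0.91 to -0.39, adjusted p = 0.365), with an adjusted p of 0.0311 under the block, 0.0394 with no filter on low counts and 0.00254 in DESeq2. MUCL1, a small secreted mucin-like protein, stood at 23.7, 21.9, 17.8 and 20.8 CPM in NNT shRNA libraries, against 33.4, 31.8 and 28.6 CPM in scrambled libraries, in the same order of codes. Its log2 fold change was -0.57 (-0.80 to -0.34, adjusted p = 0.365), and it was called with no filter on low counts (adjusted p = 0.0492) and by DESeq2 (adjusted p = 0.00254). On the scale shared by all 16 libraries, FN1 averaged 14.5 CPM in NNT shRNA and 22.9 CPM in scrambled shRNA libraries. It averaged 10.7 CPM in NNT siRNA-2, 7.51 CPM in NNT siRNA-3 and 6.05 CPM in scrambled siRNA libraries. MUCL1 averaged 20.8, 30.9, 21.2, 10.2 and 14.6 CPM in the same order of groups. Scrambled shRNA was thus the highest group for both genes.

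The next lowest of these genes were ADGRV1, a large adhesion receptor, at -0.49, MUC20, a mucin, at -0.44, CRIPAK, an inhibitor of the kinase PAK1, at -0.44, RUNX1T1, a transcriptional corepressor, at -0.43, and PDE5A, a cyclic GMP phosphodiesterase, at -0.40, each with an adjusted p of 1. The highest after MIR30A were BCL2 (0.33), CIDEB, a lipid droplet and lipoprotein factor (0.32), PALMD (0.30), SPRYD4 (0.29), NEK7, a kinase that also licenses the NLRP3 inflammasome (0.29), OXCT1, which lets cells use ketone bodies (0.28), and TLCD2 (0.26), each with an adjusted p of 1. OXCT1 stood at 143 CPM in library 2-3 and 96.2 to 101 CPM in the other NNT shRNA libraries, and without library 2-3 its log2 fold change was 0.12. MUC20 was at -0.27 without that library and at -0.26 under the block. On the scale of all 16 libraries, scrambled shRNA had the highest group mean for ADGRV1, MUC20, CRIPAK, RUNX1T1 and PDE5A. It had the lowest for CIDEB, PALMD, SPRYD4, NEK7, OXCT1 and TLCD2, but not for BCL2. ADGRV1 was also lowest in NNT shRNA libraries, and CRIPAK in scrambled siRNA libraries was close to its level in scrambled shRNA libraries.

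Extracellular matrix genes were gathered as a list after FN1 had been seen, so that list is a description. Of 60 tested, 7 had an unadjusted p under 0.05 and each was lower (FN1, VCAN, TNC, LTBP1, COL14A1, COL25A1 and LAMA5), beside 319 of all 14843 genes, 219 of them lower. The list's median log2 fold change was -0.07, beside 0.01 over all genes tested, and 53 of 60 (88.3%) were bounded within 2-fold, beside 93.8% of all genes. Transcript length, taken as that of the longest annotated transcript of each gene, moved with such values. That transcript need not be the one these cells express. Across 9825 genes at 8 CPM or more, the log2 fold change and log2 transcript length had r = -0.194 and rho = -0.164 as a description. In the fifth of genes with the longest transcripts 52 had an unadjusted p under 0.05 and were lower while 4 were higher, against 10 lower and 8 higher in the fifth with the shortest. The libraries nevertheless overlapped in this measure, the median of long minus short genes being -0.10, -0.10, -0.00 and 0.15 log2 units in NNT shRNA libraries 18-3, 19-2, 2-3 and 24-2 and 0.05, -0.07 and 0.09 in scrambled libraries 18-3, 19-2 and 24-2. With a length trend taken out of each library FN1 was at -0.63 (-0.85 to -0.40).

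Gene lists then set a bound for each pathway. Of 891 tested members of 35 lists edgeR called 0, DESeq2 0 and limma-voom 0. An unadjusted p under 0.05 was seen for 12 members, 1.35%, 4 higher and 8 lower, beside 2.15% of all genes tested. Within 2-fold 98.1% of the members were bounded and within 1.5-fold 91.7%, beside 93.8% and 79.3% of all genes tested. These shares depend on level, and among all genes at 8 CPM or more they were 99.95% and 98.3%. List members were not matched by level. For each list the mean log2 CPM of its members was also taken in each library, and the lowest and highest of the 12 differences between an NNT shRNA and a scrambled library are given as the range of the list level. That range has no test.

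**Figure D4:**
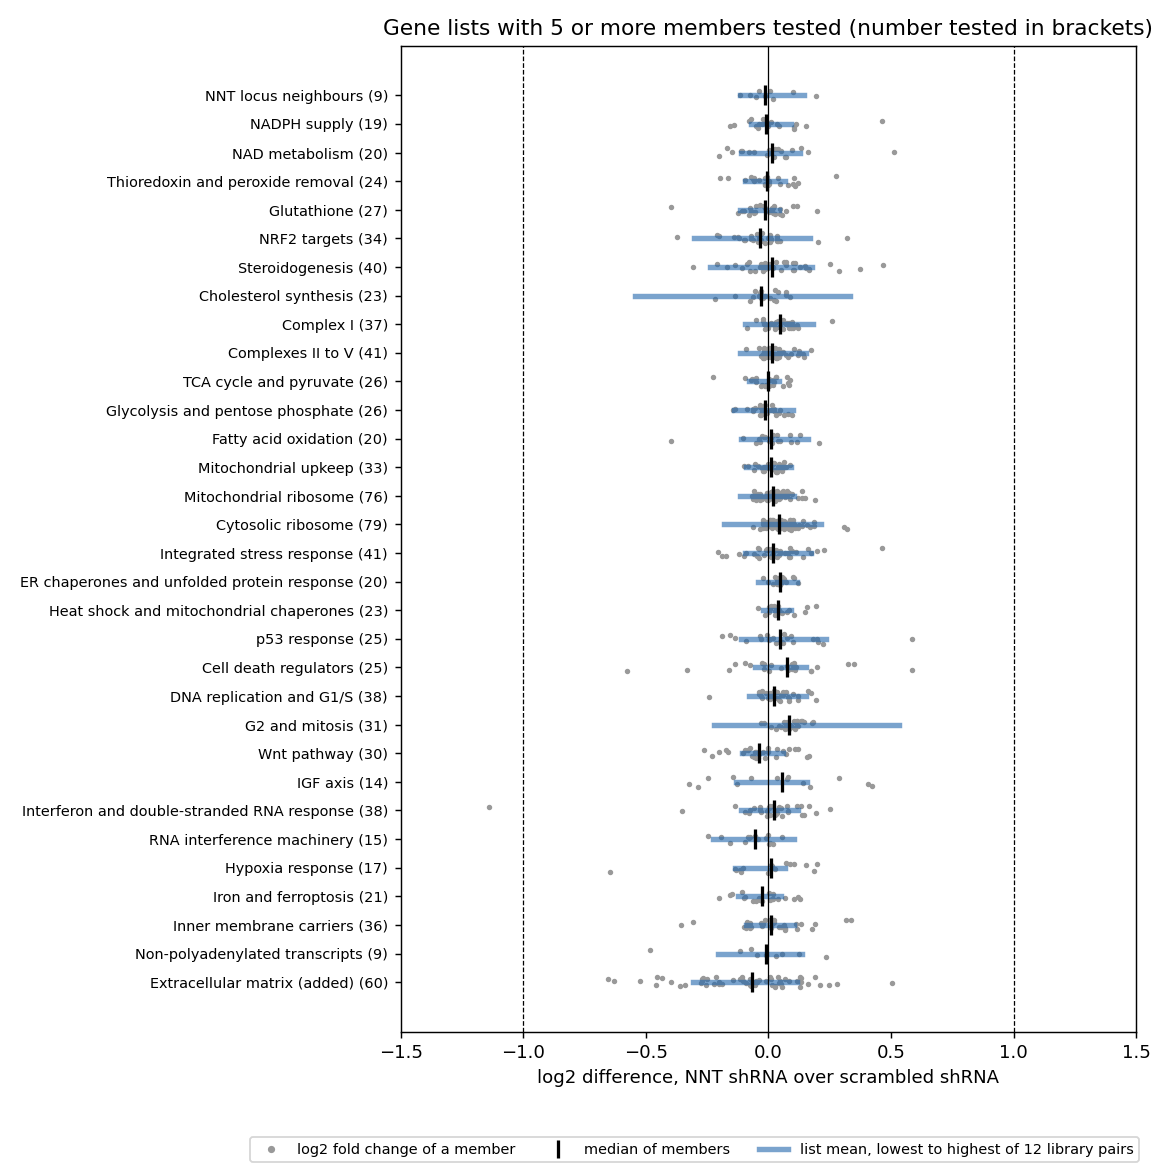
Log2 fold change (NNT shRNA over scrambled shRNA) of each tested member (grey) of the lists with 5 or more such members, the list median (black bar) and the lowest to highest of 12 library pair differences of the list mean (blue), with dashed lines at 2-fold. List medians lie between -0.07 and 0.09, and the widest blue ranges are those of cholesterol synthesis and of G2 and mitosis.

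Of 19 genes that supply NADPH or its precursors by other routes edgeR called 0, 0 had an unadjusted p under 0.05, and DESeq2 called 0. IDH2, the mitochondrial isocitrate dehydrogenase that makes NADPH in the matrix, stood at 50.7, 41.1, 46.1 and 41.0 CPM in NNT shRNA libraries 18-3, 19-2, 2-3 and 24-2, against 46.9, 40.5 and 50.8 CPM in scrambled libraries 18-3, 19-2 and 24-2. The groups overlapped, and the log2 fold change was -0.04 (-0.26 to 0.18). Of the other members, cytosolic malic enzyme ME1 was at -0.14 (-0.34 to 0.07), mitochondrial ME3 at -0.16 (-0.36 to 0.04), glutamate dehydrogenase GLUD1 at -0.00 (-0.14 to 0.14) and the mitochondrial folate enzyme MTHFD2 at 0.11 (-0.10 to 0.32). The mitochondrial NAD kinase NADK2, which makes the NADP that NNT reduces, was at 0.01 (-0.14 to 0.16). Of the 19 genes 18 were bounded within 2-fold, the exception being ALDH1L2 at about 1 CPM (0.46, -0.13 to 1.05), and the list level ranged from 0.95-fold to 1.07-fold. In NAD metabolism 19 of 20 were bounded, with the salvage enzyme NAMPT at 0.07 (-0.09 to 0.22) and the NAD consumer PARP1 at 0.01 (-0.14 to 0.15), while NMRK2 at under 1 CPM was not (0.51, -0.10 to 1.13).

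Genes of thioredoxin, peroxide removal and glutathione were nearly all bounded within 2-fold. PRDX3, the mitochondrial peroxiredoxin, stood at 284, 248, 271 and 266 CPM in NNT shRNA libraries 18-3, 19-2, 2-3 and 24-2, against 261, 292 and 283 CPM in scrambled libraries 18-3, 19-2 and 24-2, overlapping, with a log2 fold change of -0.06 (-0.22 to 0.10). Mitochondrial thioredoxin reductase TXNRD2 was at 0.00 (-0.19 to 0.20), its substrate TXN2 at 0.04 (-0.14 to 0.22), glutathione reductase GSR at 0.03 (-0.11 to 0.17), glutathione peroxidase GPX4 at 0.02 (-0.13 to 0.17) and mitochondrial superoxide dismutase SOD2 at 0.10 (-0.05 to 0.25). Of 24 thioredoxin and peroxide genes, 24 were bounded within 2-fold and 23 within 1.5-fold, the exception being TXNIP, an inhibitor of thioredoxin, which was at 197 CPM in library 2-3 and 103 to 131 CPM in the other NNT shRNA libraries. Without library 2-3 the log2 fold change of TXNIP was 0.03, in place of 0.28. Of 27 glutathione genes 26 were bounded within 2-fold, with the synthesis subunits GCLC at -0.02 (-0.18 to 0.15) and GCLM at -0.03 (-0.22 to 0.15) and the cystine carrier SLC7A11 at -0.10 (-0.36 to 0.17). The exception GPX3 was under 1 CPM.

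NRF2, encoded by NFE2L2, is the transcription factor that raises antioxidant genes when its sensor KEAP1 is oxidised. Of its 34 tested targets and partners 33 were bounded within 2-fold and 28 within 1.5-fold, 0 had an unadjusted p under 0.05, and DESeq2 called 0. NQO1, a quinone reductase, stood at 129, 127, 112.4 and 120 CPM in NNT shRNA libraries 18-3, 19-2, 2-3 and 24-2, against 117, 150 and 132 CPM in scrambled libraries 18-3, 19-2 and 24-2. Its log2 fold change was -0.12 (-0.32 to 0.07), and that of heme oxygenase HMOX1 was -0.20 (-0.47 to 0.07). NFE2L2 itself was at -0.04 (-0.24 to 0.16) and KEAP1 at 0.03 (-0.16 to 0.23). The list median was -0.03 and the list level ranged from 0.81-fold to 1.12-fold. In iron handling and ferroptosis defence 20 of 21 were bounded, with transferrin receptor TFRC at -0.15 (-0.40 to 0.11) and ferritin FTH1 at -0.03 (-0.23 to 0.18).

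Several steroidogenic genes varied between libraries of 1 group, which widened their bounds. Of 42 listed genes 40 were tested, 0 passed, 0 had an unadjusted p under 0.05 and DESeq2 called 0, with 38 bounded within 2-fold and 32 within 1.5-fold. CYP11A1, the mitochondrial enzyme that cleaves the cholesterol side chain with electrons from NADPH, stood at 342, 329, 250 and 344 CPM in NNT shRNA libraries 18-3, 19-2, 2-3 and 24-2, against 297, 279 and 309 CPM in scrambled libraries 18-3, 19-2 and 24-2. Its log2 fold change was 0.10 (-0.12 to 0.33), and library 2-3 was the low one. Its electron carriers were at 0.13 (-0.17 to 0.43) for ferredoxin FDX1 and 0.10 (-0.18 to 0.39) for ferredoxin reductase FDXR. The cholesterol carrier STAR was at 0.06 (-0.18 to 0.30) and the lipoprotein receptor SCARB1 at -0.03 (-0.23 to 0.16).

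HSD3B2, which makes progesterone from pregnenolone, stood at 21.6, 27.0, 14.7 and 31.5 CPM in NNT shRNA libraries 18-3, 19-2, 2-3 and 24-2, against 13.98, 30.0 and 10.9 CPM in scrambled libraries 18-3, 19-2 and 24-2. The scrambled library 19-2 was the high one of its group, and without it the log2 fold change of 0.37 became 0.92, against 0.12 without the scrambled library 24-2. CYP17A1, the step towards cortisol and androgens, stood at 229, 259, 141 and 260 CPM in NNT shRNA libraries, against 184, 376 and 189 CPM in scrambled libraries, in the same order of codes. Its log2 fold change was -0.17 (-0.70 to 0.36), and without the scrambled library 19-2 it was 0.25. CYP21A2, the 21-hydroxylase, was at 0.29 (-0.16 to 0.74) and the sulfotransferase SULT2A1 at -0.11 (-0.42 to 0.21). Without the scrambled library 19-2 CYP21A2 was at 0.58 and no longer bounded within 2-fold, and without the scrambled library 24-2 it was at 0.08. The transcription factor NR5A1, which drives these genes, was at 0.10 (-0.18 to 0.38) and the ACTH receptor MC2R at 0.16 (-0.38 to 0.69). MC2R was at 0.50 without the scrambled library 19-2, again not bounded, and at -0.07 without the scrambled library 24-2. Without 19-2 STAR was at 0.20, FDX1 at 0.33 and SULT2A1 at 0.06. The aldosterone synthase CYP11B2 was under 1 CPM and not bounded (0.47, -0.25 to 1.19). The list level ranged from 0.85-fold to 1.13-fold.

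**Figure D5:**
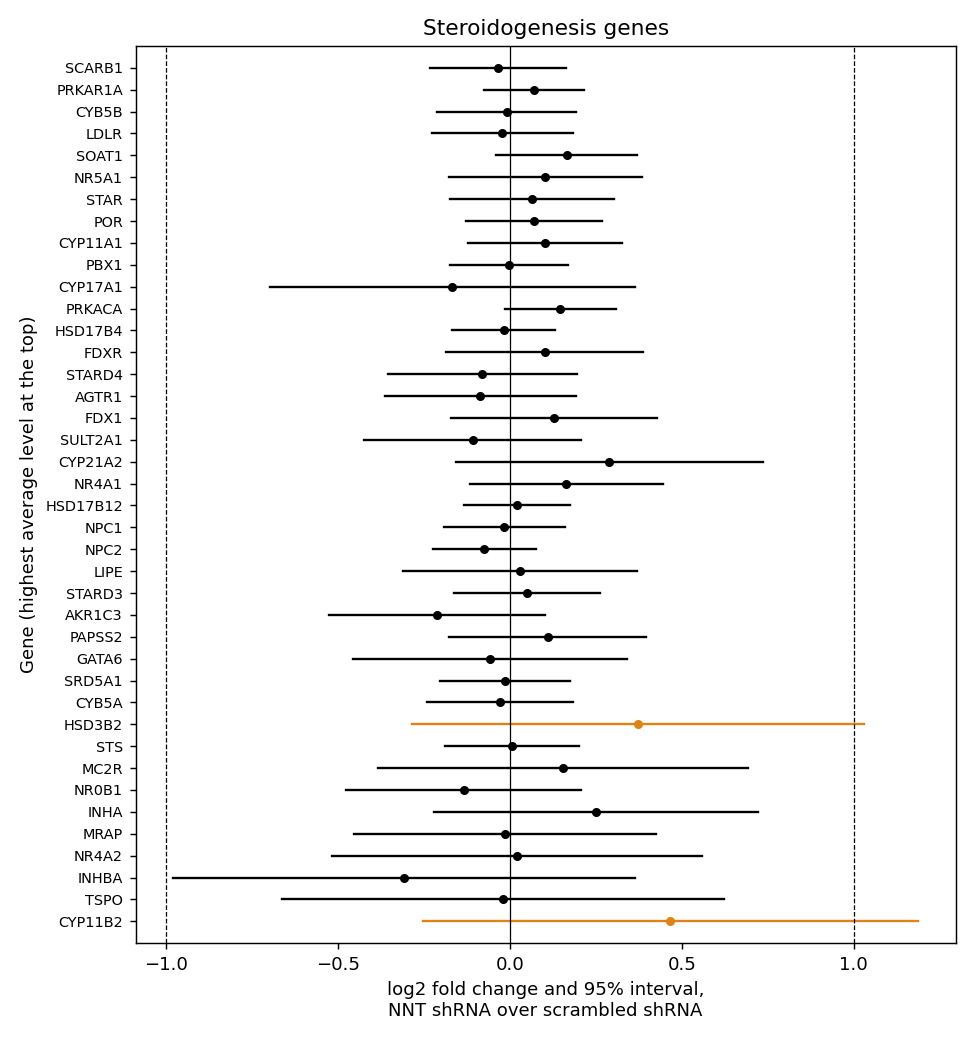
Log2 fold change (NNT shRNA over scrambled shRNA) with its 95% interval for 40 steroidogenesis genes, highest average level at the top, orange where the interval crosses the dashed lines at 2-fold. HSD3B2 and CYP11B2 reach past 2-fold on the high side and each of the 40 intervals includes 0.

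In cholesterol synthesis each of the 23 genes tested was bounded within 2-fold and 22 within 1.5-fold. HMGCS1, given above as a neighbour of NNT, stood at 1404, 1223, 879.9 and 1273 CPM in NNT shRNA libraries 18-3, 19-2, 2-3 and 24-2, against 1226, 1452 and 1004 CPM in scrambled libraries 18-3, 19-2 and 24-2, so that the groups overlapped. MVD was the widest (0.01, -0.60 to 0.61). The list level ranged widely, from 0.69-fold to 1.26-fold over library pairs, with NNT shRNA library 2-3 the lowest of the 7 at a mean log2 CPM of 7.06.

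Respiratory chain genes were nearly all bounded within 1.5-fold, as were 98.3% of all genes at 8 CPM or more. Of 37 complex I genes 37 were bounded within 2-fold and 36 within 1.5-fold, and of 41 genes of complexes II to V 41 were within 1.5-fold. NDUFS1, the largest complex I subunit, stood at 95.4, 100.4, 105 and 101 CPM in NNT shRNA libraries 18-3, 19-2, 2-3 and 24-2, against 92.8, 92.4 and 96.0 CPM in scrambled libraries 18-3, 19-2 and 24-2, with a log2 fold change of 0.10 (-0.05 to 0.24). Succinate dehydrogenase SDHA was at 0.07 (-0.08 to 0.22), COX4I1 of complex IV at -0.01 (-0.16 to 0.13) and ATP5A1 of the ATP synthase at -0.04 (-0.19 to 0.11). The list medians were 0.05 and 0.01, and 28 of 37 and 27 of 41 members lay above 0. The files held 0 mitochondrially encoded genes, so those subunits were not analysed here.

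Central carbon metabolism was also bounded within 1.5-fold throughout. This held for 26 of 26 genes of the TCA cycle and pyruvate use and 26 of 26 of glycolysis and the pentose phosphate pathway. Citrate synthase CS was at -0.01 (-0.15 to 0.13), pyruvate dehydrogenase PDHA1 at -0.03 (-0.17 to 0.11), the glucose carrier SLC2A1 at 0.02 (-0.18 to 0.21) and LDHA at -0.04 (-0.20 to 0.13). PDK3, a kinase that switches off pyruvate dehydrogenase, stood at 41.5, 43.1, 43.0 and 51.0 CPM in NNT shRNA libraries 18-3, 19-2, 2-3 and 24-2, against 50.6, 54.8 and 51.5 CPM in scrambled libraries 18-3, 19-2 and 24-2. It had the smallest p of the 26 genes (unadjusted p = 0.022) with a log2 fold change of -0.23 (-0.42 to -0.04), and did not pass over all genes (adjusted p = 1). In fatty acid oxidation 19 of 20 were bounded within 2-fold, with CPT1A at 0.02 (-0.32 to 0.35). Of 36 inner membrane carriers, the SLC25 family to which the uncoupling proteins belong, 36 were bounded, and SLC25A27 had the smallest p (-0.31, -0.61 to -0.01). Of 33 genes of mitochondrial biogenesis, dynamics and quality control 33 were bounded, with TFAM, which packages mitochondrial DNA, at 0.09 (-0.06 to 0.23).

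Mitochondrial ribosomal proteins lay inside 1.5-fold in 76 of 76 cases, and their list level ranged from 0.92-fold to 1.07-fold. Of 79 cytosolic ribosomal proteins 79 were bounded within 2-fold and 64 lay above 0, with a median of 0.04 beside 0.01 over all genes tested, of which 7804 of 14843 lay above 0. The median length of the longest annotated transcript was 1857 bases in this list and 1333 bases in complex I. In the fifth of genes shortest by that measure the median log2 fold change was 0.02. RPL41, the 1 member with an unadjusted p under 0.05, stood at 349, 504, 346 and 329 CPM in NNT shRNA libraries 18-3, 19-2, 2-3 and 24-2, against 267, 359 and 298 CPM in scrambled libraries 18-3, 19-2 and 24-2. The groups overlapped, and its log2 fold change was 0.31 (0.00 to 0.62), or 0.15 without the NNT shRNA library 19-2. Near-identical copies of ribosomal protein genes share reads, which makes single members uncertain.

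Stress programmes held 0 calls by edgeR or DESeq2. The integrated stress response, in which ATF4 raises amino acid supply, had 40 of 41 genes bounded within 2-fold. ATF4 was at -0.04 (-0.29 to 0.21), DDIT3, a factor linked to cell death, at 0.10 (-0.19 to 0.39), asparagine synthetase ASNS at -0.04 (-0.25 to 0.16) and TRIB3 at -0.00 (-0.24 to 0.23), while GDF15, a secreted stress factor at under 1 CPM, was bounded loosely (-0.19, -0.91 to 0.53). Of 20 genes of the endoplasmic reticulum stress response and 23 heat shock and mitochondrial chaperone genes, 20 and 23 were bounded within 1.5-fold, and 18 and 21 lay above 0. The mitochondrial chaperonin HSPD1 stood at 2226, 2062, 2050 and 2318 CPM in NNT shRNA libraries 18-3, 19-2, 2-3 and 24-2, against 1827, 1970 and 2029 CPM in scrambled libraries 18-3, 19-2 and 24-2. The groups did not overlap, and the log2 fold change was 0.16 (-0.00 to 0.31, unadjusted p = 0.0527, adjusted p = 1). In the hypoxia response 16 of 17 were bounded, with HIF1A at -0.12 (-0.30 to 0.07) and VEGFA at 0.10 (-0.03 to 0.24).

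Regulators of cell death had members on both sides. Of 25 cell death regulators 3 had an unadjusted p under 0.05, beside 319 of all 14843 genes (2.15%), and none passed. Within 2-fold 24 (96%) were bounded and within 1.5-fold 19 (76%), beside 93.8% and 79.3% of all genes tested. BCL2, which protects from apoptosis, stood at 10.5, 13.6, 11.2 and 11.8 CPM in NNT shRNA libraries 18-3, 19-2, 2-3 and 24-2, against 10.2, 9.49 and 8.38 CPM in scrambled libraries 18-3, 19-2 and 24-2. Its log2 fold change was 0.33 (0.06 to 0.59). BIK, a pro-apoptotic relative, stood at 1.96, 2.58, 1.74 and 1.93 CPM in NNT shRNA libraries, against 2.89, 3.21 and 3.06 CPM in scrambled libraries, in the same order of codes, with a log2 fold change of -0.58 (-0.96 to -0.19). BMF, another pro-apoptotic member, was at -0.33 (unadjusted p = 0.0299). Each had an adjusted p of 1. PMAIP1, a pro-apoptotic gene also in the p53 response list, went the other way from BIK and BMF. Its log2 fold change of 0.59 was the highest of the 25 cell death regulators, and its upper interval end of 1.24 lay past 2-fold. BAX was at 0.17 (-0.04 to 0.39) and MCL1 at 0.01 (-0.14 to 0.17). Of 25 p53 response genes 24 were bounded, with CDKN1A, an inhibitor of cell division, at 0.22 (-0.03 to 0.47) and MDM2 at 0.02 (-0.18 to 0.21).

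Genes of G2 and mitosis had a median log2 fold change of 0.09, 29 of 31 members above 0 and 31 bounded within 1.5-fold. This rested on library 2-3. CCNB1, the mitotic cyclin, stood at 299, 306, 453 and 306 CPM in NNT shRNA libraries 18-3, 19-2, 2-3 and 24-2, against 320, 311 and 361 CPM in scrambled libraries 18-3, 19-2 and 24-2. Without library 2-3 the list median was -0.07, and it was also -0.07 in the blocked fit, which in effect leaves that library out. In DNA replication and G1/S 38 of 38 were bounded within 2-fold, with CCNE1 at 0.01 (-0.24 to 0.26) and MCM2 at 0.01 (-0.17 to 0.19).

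Pathways that mark adrenocortical carcinoma were bounded as follows. Wnt signalling, which drives many of these tumours, had 30 of 30 genes within 2-fold and 27 within 1.5-fold, with beta-catenin CTNNB1 at -0.00 (-0.15 to 0.15), its feedback target AXIN2 at -0.04 (-0.21 to 0.13) and 2 members with an unadjusted p under 0.05, the receptor LGR5 at -0.20 (-0.40 to -0.01) and the secreted inhibitor SFRP1 at -0.26 (-0.52 to -0.01). In the IGF axis the bounds were wide, 13 of 14 genes within 2-fold but 7 within 1.5-fold. IGF2, a growth factor often overexpressed in these tumours, stood at 239, 369, 295 and 317 CPM in NNT shRNA libraries 18-3, 19-2, 2-3 and 24-2, against 292, 163 and 293 CPM in scrambled libraries 18-3, 19-2 and 24-2. The scrambled library 19-2 was the low one, and the log2 fold change was 0.29 (-0.11 to 0.69), or 0.06 without that library.

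Both groups carry a hairpin RNA, so their comparison cannot show a response to the hairpin itself, and the values for genes that respond to double-stranded RNA describe the difference between the 2 groups alone. Of 38 interferon and sensor genes 36 were bounded within 2-fold, with the sensors DDX58 at 0.03 (-0.24 to 0.30) and IFIH1 at 0.03 (-0.21 to 0.26), the kinase EIF2AK2 at 0.08 (-0.13 to 0.29) and the target IFIT1 at 0.07 (-0.12 to 0.27). IFITM2, at under 1 CPM, was the 1 member with an unadjusted p under 0.05 (-1.14, -1.97 to -0.32). Of 15 genes of RNA interference itself 15 were bounded within 1.5-fold. The nuclease DICER1 was at -0.16 (-0.37 to 0.06), the nuclease DROSHA at 0.06 (-0.10 to 0.21) and the slicer AGO2 at -0.05 (-0.42 to 0.31), and TNRC6C, a partner of Argonaute, had the smallest p (-0.25, -0.46 to -0.03). The median length of the longest annotated transcript of these 15 genes was 7116 bases, beside the length trend given above. Among the chromaffin or neural markers SYP, a synaptic vesicle protein, stood at 26.6, 38.4, 28.3 and 30.9 CPM in NNT shRNA libraries 18-3, 19-2, 2-3 and 24-2, against 26.7, 24.5 and 24.7 CPM in scrambled libraries 18-3, 19-2 and 24-2, a log2 fold change of 0.29 (0.04 to 0.55) that did not pass.

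Distances between libraries overlapped within and between groups. Over 10204 genes at 8 CPM or more, the median absolute log2 difference was 0.0732 to 0.149 for the 12 pairs of an NNT shRNA and a scrambled library, with a median of 0.114. It was 0.0815 to 0.178 for the 9 pairs within a group, with a median of 0.113. The between-group pairs include 3 that share a title code, at 0.0732 to 0.133 with a median of 0.0791, and no pair within a group shares one. The 9 between-group pairs of different codes, which compare with the pairs within a group, had a median of 0.120.

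NNT siRNA-3, a transfected siRNA that also lowers NNT, gave a comparison with another reagent. NNT averaged 31.7 ± 2.95 CPM in NNT shRNA (SD, n = 4) and 371 ± 49.9 CPM in scrambled shRNA libraries (SD, n = 3), against 38.5 ± 8.27 CPM in NNT siRNA-3 and 337 ± 35.6 CPM in scrambled siRNA libraries (SD, n = 3 each), fitted together over 13 libraries. The shRNA effect minus the siRNA-3 effect on NNT was -0.42 on the log2 scale (-0.81 to -0.02) and did not pass over all genes (adjusted p = 0.427). For siRNA-3 on its own 6 libraries, 56 of 14601 genes passed, 15.6% had an unadjusted p under 0.05, 87.0% were bounded within 2-fold and 64.2% within 1.5-fold, and the median absolute log2 fold change was 0.15. The number of libraries differs between these fits. Over 10202 genes at 8 CPM or more other than NNT, the log2 fold changes of the 2 reagents, which share no control libraries, had r = -0.024 and rho = -0.050, as a description across genes.

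The difference of the 2 effects passed for 5 of 15113 genes (0.0331%), and for 116 with the title code as a block. These 5 moved with siRNA-3 and lay close to 0 with the shRNA. RNF11, a ubiquitin ligase, averaged 122 ± 5.70 CPM in NNT shRNA and 123 ± 3.30 CPM in scrambled shRNA libraries, a log2 fold change of -0.02, against 48.4 ± 13.2 CPM in NNT siRNA-3 and 127 ± 10.9 CPM in scrambled siRNA libraries, one of -1.39. The difference was 1.37 (SE 0.19, adjusted p = 0.0144). USMG5, a small subunit of the ATP synthase, differed by 1.08 (SE 0.15, adjusted p = 0.0144) and ANKFN1 by 1.78 (SE 0.28, adjusted p = 0.0385). SLC16A9, a carrier of the monocarboxylate family, differed by -1.36 (SE 0.22, adjusted p = 0.0385) and PPP2R1B, a phosphatase subunit, by -0.90 (SE 0.15, adjusted p = 0.0417). Which of them passed depended on single libraries, and 0 passed without the siRNA-3 library 11-1, without the scrambled shRNA library 18-3 or 24-2, or without the scrambled siRNA library 16-1 or 23-5.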

How the data were processed

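Polyadenylated RNA of NCI-H295R cells was sequenced, and the deposited values are whole-number read counts per gene and lane. Per the submitters' processing notes, the authors used STAR 2.4.2a, HTSeq 0.6.1p1, DESeq2 1.14.1 and hg19; the strand setting of the counting is not given in the sources used here. The 4 lanes of each library were summed, and lanes of a library differed by no more than sampling (chi-square per degree of freedom 0.997 to 1.05), whereas libraries of a group differed by more (8.76 to 35.7 over 9 pairs). Rows that name no gene stayed out of library sizes and tests; reads without a gene came to 12.6 to 14.5%, ambiguous reads to 1.05 to 1.23% and multiply aligned reads to 7.65 to 8.17% of the counted total. Groups were taken from the labels.

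Counts of the 7 shRNA libraries were fitted with edgeR 4.0.16 (TMM scaling, genes kept by filterByExpr at a minimum count of 10, quasi-likelihood test, Benjamini-Hochberg adjustment, threshold 0.05) in R 4.3.3, after the scripts had been checked on simulated data. The 95% intervals are per gene. With 4 and 3 libraries the residual degrees of freedom were 5. The fit also borrows spread from other genes, and the intervals used about 12.6 degrees of freedom in total. The difference of effects was an interaction over 13 libraries. Alternatives included DESeq2 1.42.0 and limma-voom (limma 3.58.1).

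Genes were named by a rule: those past the threshold, the 8 highest and 8 lowest at 8 CPM or more with an unadjusted p under 0.05 and groups that did not overlap, preset members of each list, and in each list the smallest p and the widest interval end. The comparison, the lists and the rule were chosen with earlier results of these data known. The labels do not say what the title codes mean. Libraries that share a code deviated from their group means together (r = 0.154, 0.220 and 0.141), while pairs of different codes ran from -0.195 to 0.169, the highest being NNT shRNA 2-3 with scrambled 24-2. Since each same-code value was above 0.1, the code was also fitted as a block; library 2-3 has no partner and adds nothing there, and 2 residual degrees of freedom remain. Values of a few genes that the rule takes are not reported here.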

Additional observations from a re-analysis of the deposited data

Results flagged for a closer look

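Among 212 genes and lists checked in the 4 NNT shRNA libraries, 11 had 1 library far from the other 3, meaning that its gap to the nearest took a larger share of their range than Dixon's 95% critical value allows (the gap is given as that share). Chance alone gives such a gap in about 1 in 20 groups. Library 2-3 was the distant one in 9 of them. It was high for the mitotic genes CDK1 (347 CPM, others 231 to 238, gap 0.937), CCNA2 (272 CPM, others 182 to 190, gap 0.916) and CCNB1 (453 CPM, others 299 to 306, gap 0.955), and for the mean log2 CPM of G2 and mitosis (7.98, others 7.38 to 7.45, gap 0.873). It was high for OXCT1 (gap 0.904) and the signalling protein WNT4 (153 CPM, others 115 to 121, gap 0.853). It was low for CYP11A1 (250.2 CPM, others 329 to 344, gap 0.840), CDKN1C (0.354 CPM, others 0.742 to 0.789, gap 0.891) and AIFM2 (1.25 CPM, others 1.69 to 1.76, gap 0.858). Library 19-2 was high for SLC2A1 (208 CPM, others 165 to 172, gap 0.837) and low for the chaperone HSPA8 (1127 CPM, others 1577 to 1666, gap 0.835).

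The shRNA effect differed from the siRNA-3 effect, by the interaction test, for ANKFN1 (1.78), RNF11 (1.37), USMG5 (1.08), SLC16A9 (-1.36) and PPP2R1B (-0.90), on the log2 scale. The shRNA effects on these genes were 0.10, -0.02, 0.04, 0.10 and -0.11, and the siRNA-3 effects -1.67, -1.39, -1.04, 1.46 and 0.79, in the same order.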

How the results depend on the processing

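The log2 fold change of NNT stayed between -3.65 and -3.46 and past the threshold in the 17 alternatives run. The count of genes called, 2 in the reported fit, was 5 with no filter on low counts, 1 with at least 5 CPM in 3 libraries, 1 with lane 1 alone, 6 in DESeq2's test and 1 to 1 when leaving out each library in turn. With the title code as a replicate block it was 4, and the difference of effects had 116 calls in place of 5; the block changed no other call reported above. That difference had 52 calls with no filter, 2 with the stricter filter, 171 in DESeq2's test and 0 to 62 when leaving out each library in turn, the 62 without the siRNA-3 library 30-11. The cause was not tested. No direction of a called gene reversed. Of 229 genes followed, 3722 values over the alternatives kept their direction and side, 10 gained a call, 7 lost one and 89 moved by more than the spread between libraries. A length trend in the offsets was chosen after seeing the data and left 2 calls. The share of genes bounded within 2-fold was 67.7% with no filter and 99.9% with the stricter one, which test different genes. Bounds were widest under 1 CPM.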
